A study of Mus musculus with 18 samples.

Results

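RNA-seq counts were described for 10 genes of 53672 in the count tables: Rcor1, Rcor2, Rcor3, Mier1, Mier2, Mier3, Elmsan1, Trerf1 and Rere, which encode the ELM2–SANT scaffolds of HDAC1/2 complexes outside NuRD, together with Kdm1a. They were taken by symbol as members of these complexes, by a rule that used no measured value, although earlier results of these data were known when the genes were chosen. All 10 passed the filter on low counts. The cells were mouse ESCs of the line ES-E14TG2a carrying loxP-flanked alleles of both Hdac1 and Hdac2 (Hdac1/2 lox/lox), grown with LIF. Each of 3 lines stably expressed an HDAC1 rescue protein from a piggyBac vector, either HDAC1-WT, HDAC1–E63R or HDAC1–Y48E. Within each line 3 libraries came from untreated cells and 3 from cells given 1 µM 4-hydroxytamoxifen (OHT), which removes the endogenous Hdac1 and Hdac2 alleles, so that 6 groups and 18 libraries were available. The labels give 5 days of OHT, whereas the methods describe a shorter exposure within the same culture time. All untreated groups therefore carried endogenous HDAC1/2 as well as the rescue protein. Each construct was represented by 1 line, so that mutation and line cannot be told apart. The study calls its replicates biological, and no source used here says whether they were separate cultures, so that p-values measure the spread between these libraries.

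The ELM2 and SANT domains of these scaffolds bind HDAC1 or HDAC2 and hold the enzyme in a complex. RCOR1, RCOR2 and RCOR3 join it to the histone demethylase LSD1, the product of Kdm1a, to form CoREST, which is brought to neuronal genes by the repressor REST. The MIER proteins each scaffold a MIER complex, MIDEAS (the product of Elmsan1) or TRERF1 scaffolds MiDAC with DNTTIP1, and the atrophin-family protein RERE carries its own HDAC-containing complex. The comparisons below ask how the mRNA of each scaffold differed after OHT when the remaining HDAC1 was wild type or altered at its scaffold-binding surface.

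Libraries held between 9019615 and 11454638 counts on genes. At this depth 3 counts, the upper limit that a count of 0 allows, correspond to 0.248 to 0.343 CPM, and these limits cover counting error only. One library stood apart. Untreated HDAC1–E63R replicate 3 had a TMM scaling factor of 0.814, against 0.955 to 1.11 in the other 17 libraries, and 42.9% of its entries fell on no gene feature against 44.8% to 45.9%. Its log2 CPM correlated with the other replicates of its group at 0.939 and 0.948 across genes, whereas all other replicate pairs were between 0.968 and 0.977. Calls in the HDAC1–E63R line that it changed are given with and without it, the latter chosen after the data were seen for the markers, RE1 genes, shares and ratios. The 6 ESC markers examined (Pou5f1, Nanog, Sox2, Esrrb, Zfp42 and Dppa5a) had group means between 179 and 2631 CPM, whereas markers of other cell types (Gata6, Sox17, Cdx2, Elf5, T, Pax6 and Col1a2) had group means under 12 CPM. Hdac1 itself did not settle the OHT labels. Its log2 change after OHT was -0.24, 0.22 and 0.14 in the HDAC1-WT, HDAC1–E63R and HDAC1–Y48E lines and that of Hdac2 was -0.66, -0.21 and -0.07, none with an edgeR adjusted p under 0.01. Hdac2 in HDAC1-WT cells came nearest (edgeR adjusted p = 0.0125). Untreated Hdac1 was lower than in HDAC1-WT cells in both mutant lines, by a log2 difference of -0.96 in HDAC1–E63R (edgeR adjusted p = 8.81e-08) and -1.02 in HDAC1–Y48E cells (5.60e-08). The files do not separate rescue from endogenous Hdac1, and the part of this difference in comparisons between lines was not tested.

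Levels were compared between genes per length, as RPKM (CPM divided by the kilobases of merged exons). In untreated HDAC1-WT cells Kdm1a was the highest at 52.0 ± 1.60 (SD, n = 3), followed by Rcor2 at 47.6 ± 0.273. Elmsan1 (16.8 ± 0.718), Rcor1 (15.4 ± 1.52) and Rere (13.5 ± 0.424) formed a middle group in which the library ranges of Elmsan1 and Rcor1, and of Rcor1 and Rere, overlapped. Mier2 followed at 11.8 ± 0.788 and Mier3 at 8.04 ± 0.494. Mier1 (5.27 ± 0.696) and Trerf1 (3.86 ± 0.862) were not separated by their ranges, and Rcor3 was lowest at 0.799 ± 0.203. This order depended on the length used. With the longest annotated transcript of each gene Mier2 moved from rank 6 to rank 3, and Mier1 from rank 8 to rank 7, above Mier3. On that length Mier1 was at 13.6 and Trerf1 at 4.97. Kdm1a and Rcor2 held the first and second ranks in the 6 groups on merged exons, in that order except in OHT-treated HDAC1-WT cells, where Rcor2 was at 56.4 ± 3.67 and Kdm1a at 48.5 ± 2.31. Trerf1 and Rcor3 held the last 2 ranks in each group. Summed over the 9 scaffolds, Rcor1 to Rcor3 together took 51.9% ± 0.960 of the per-length level in untreated HDAC1-WT cells, Mier1 to Mier3 20.4% ± 0.418, Elmsan1 and Trerf1 16.8% ± 1.21 and Rere 11.0% ± 0.174.

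Among the 10 genes, 2 fell after OHT in HDAC1–Y48E cells, Elmsan1 and Rcor2, and none passed the test in the other lines. A gene was called at an edgeR adjusted p under 0.01. In HDAC1-WT cells 0 of 10 were called, where 0.0585% of the 18791 genes tested were called. The same comparison gave 1 of the 10 at an unadjusted p under 0.05, beside 1852 of all genes tested, and 0 with DESeq2, beside 85. In the HDAC1–E63R line 0 of 10 were called against 14.3% of all genes tested. Of the 10, 4 had an unadjusted p under 0.05, beside 6886 of all 18791 genes, and DESeq2 called 1 (Kdm1a), beside 3595. In HDAC1–Y48E cells 2 of 10 were called, both lower, against 30.9% of all genes called in either direction and 14.7% called lower. The median log2 change of the 10 genes was -0.02 in HDAC1-WT, -0.24 in HDAC1–E63R and -0.19 in HDAC1–Y48E cells, beside 0.00, 0.03 and 0.05 over all genes tested. The number below 0 was 6, 8 and 9 of 10. In bulk RNA, fewer cells of a type and less RNA per cell cannot be told apart.

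**Figure D1:**
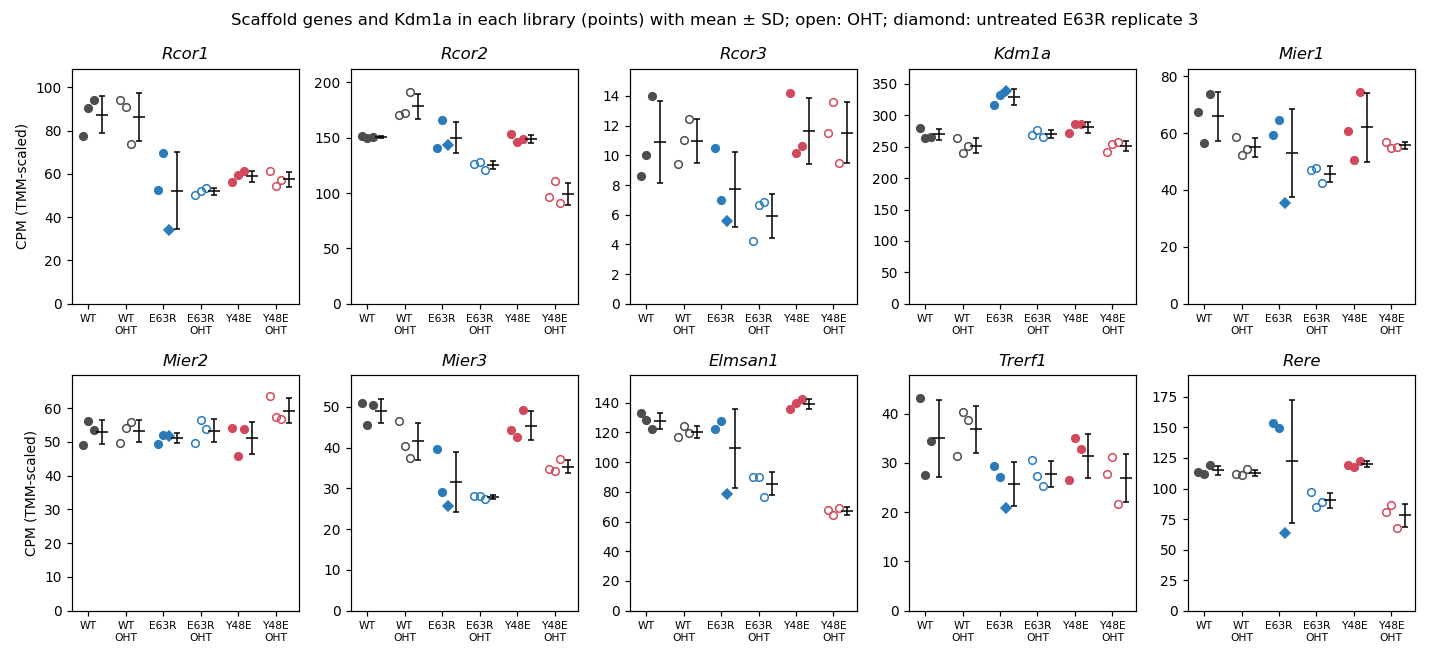
TMM-scaled CPM (y axes, from 0) of the 10 genes in each of the 18 libraries (points), with the mean ± SD of each group of 3 beside them. Filled points are untreated and open points OHT-treated libraries, and the diamond is untreated HDAC1–E63R replicate 3, which lies well below its group for Rere, Elmsan1, Mier1 and Rcor1. The open red points of Elmsan1 and Rcor2 lie below all other libraries of those genes.

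**Figure D2:**
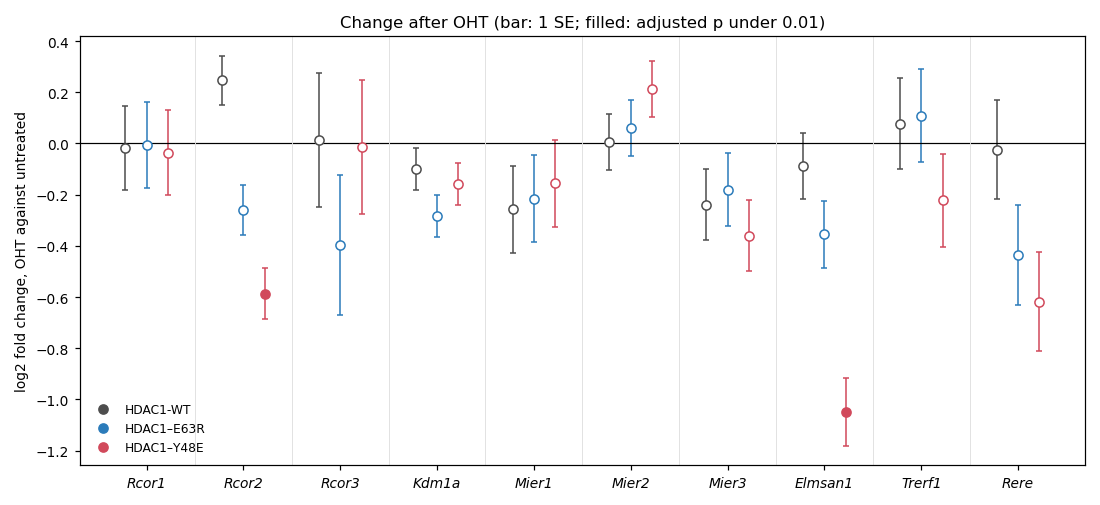
Log2 fold change after OHT (y axis) of the 10 genes (x axis) in the 3 lines, with bars of 1 standard error and filled points for an edgeR adjusted p under 0.01. The 2 filled points are Rcor2 at -0.59 and Elmsan1 at -1.05, both in the HDAC1–Y48E line.

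The start-site regions of the 2 called genes are shown because their mRNA was the one that differed. Each window runs from 250 bases before to 50 after a RefSeq start site on GRCm38.p6, the build of the counts, and capitals mark a GC box (GGGCGG, or CCGCCC when read from the other strand) or an E-box (CACGTG). Rcor2 lies at chr19:7267144-7267443 on the plus strand, and Elmsan1, listed by RefSeq as Mideas, has 2 windows on the minus strand, chr12:84218832-84219131 and chr12:84193966-84194265.
Rcor2: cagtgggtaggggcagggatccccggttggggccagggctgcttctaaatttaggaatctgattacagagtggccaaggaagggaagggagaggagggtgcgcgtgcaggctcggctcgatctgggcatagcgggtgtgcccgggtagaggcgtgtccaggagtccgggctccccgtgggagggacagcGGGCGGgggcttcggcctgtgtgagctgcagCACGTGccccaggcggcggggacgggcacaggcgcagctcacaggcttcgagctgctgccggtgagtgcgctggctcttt
Elmsan1, start site 1: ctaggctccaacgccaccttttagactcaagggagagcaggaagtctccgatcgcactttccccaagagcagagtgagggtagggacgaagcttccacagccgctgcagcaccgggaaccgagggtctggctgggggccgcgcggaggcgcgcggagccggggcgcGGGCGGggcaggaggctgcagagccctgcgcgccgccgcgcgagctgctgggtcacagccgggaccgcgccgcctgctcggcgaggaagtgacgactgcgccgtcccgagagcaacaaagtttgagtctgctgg
Elmsan1, start site 2: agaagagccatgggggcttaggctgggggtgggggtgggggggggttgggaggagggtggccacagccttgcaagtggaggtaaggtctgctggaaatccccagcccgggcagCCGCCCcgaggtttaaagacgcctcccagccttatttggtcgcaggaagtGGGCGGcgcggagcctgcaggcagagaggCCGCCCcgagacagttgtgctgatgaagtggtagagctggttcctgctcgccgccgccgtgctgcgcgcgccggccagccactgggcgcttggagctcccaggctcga
All 10 genes were matched, with 12 windows in all. The GC content of the printed windows was 67.3%, 69.3% and 68.0%, against a median of 52.7% over 32851 RefSeq promoter windows. They hold 21, 33 and 20 CpG, against a median of 7. Of the 12 windows, 9 hold a GC box, as do 35.7% of all windows, and 5 hold a CCAAT box (CCAAT), as do 37.4%. The E-box was found only in the Rcor2 window among the 12 and in 7.15% of all windows. A TATA box (TATAAA, 13.6% of all windows) was found only in 1 window of Mier1. The octamer ATGCAAAT (1.74% of all windows) and the ESRRB core CAAGGTCA (1.56%) were found in none of the 12. Both strands were searched, and a match is only a description of these letters.

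Rcor2 (chromosome 19, 7267325 to 7275225, mm10), the main CoREST scaffold of these cells by level, had 151, 149 and 150.3 CPM in the 3 untreated HDAC1-WT libraries and 171, 172 and 191 after OHT. In untreated HDAC1–E63R cells it had 140.4, 166 and 143 CPM and after OHT 127, 128 and 121. In untreated HDAC1–Y48E cells it had 153, 146 and 149 CPM and after OHT 96.6, 111 and 90.6. The 3 untreated groups thus lay close together, while the OHT-treated libraries lay above their controls in HDAC1-WT cells and below them in both mutant lines, without overlap in any line. The fall in HDAC1–Y48E cells, from 149 ± 3.59 to 99.2 ± 10.3 CPM (SD, n = 3), was a log2 change of -0.59 (standard error 0.10, edgeR adjusted p = 4.86e-05). The values in HDAC1-WT (0.25, adjusted p = 0.367) and HDAC1–E63R (-0.26, adjusted p = 0.0547) did not pass.

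Rcor1 (chromosome 12, 111039351 to 111115901), the scaffold first known as CoREST, had nearly the same level before and after OHT in each line. The untreated HDAC1-WT libraries had 77.6, 90.2 and 94.1 CPM and the OHT-treated ones 94.3, 91.0 and 73.6. In HDAC1–E63R cells the values were 52.4, 69.8 and 34.3 CPM untreated and 50.3, 51.9 and 53.6 after OHT, and in HDAC1–Y48E cells 56.2, 59.3 and 61.3 untreated and 61.1, 54.2 and 57.1 after OHT. The libraries of both mutant lines lay below those of HDAC1-WT whether treated or not. The log2 changes after OHT were between -0.04 and -0.01, with standard errors of 0.16 to 0.17. Rcor3 (chromosome 1, 192098546 to 192138062), the least abundant paralogue, had 4.22 to 14.2 CPM over the 18 libraries, from 49 to 150 counts. Its log2 changes of 0.01, -0.40 and -0.01 had standard errors of 0.26 to 0.27 and were not called. Over 667 bases Rcor3 is 100% identical to Gm26879 and 8.34% of its exon bases overlap genes on the opposite strand, and the use of strand in counting is not given in the sources used here, so its level is uncertain.

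Kdm1a (chromosome 4, 136550540 to 136602723), which encodes LSD1, the demethylase that CoREST carries, differed little between groups. It had 279, 264 and 265 CPM in untreated and 263, 239 and 252 in OHT-treated HDAC1-WT cells. In HDAC1–E63R cells the values were 316, 333 and 339 untreated and 269, 277 and 265 after OHT, and in HDAC1–Y48E cells 271, 286 and 286 untreated and 242, 254 and 257 after OHT. The OHT-treated libraries lay below their controls without overlap in each line. The number of the 10 genes whose groups did not overlap was 2, 2 and 6 in the HDAC1-WT, HDAC1–E63R and HDAC1–Y48E lines, beside 19.2%, 36.9% and 59.3% of all genes tested. None of the Kdm1a changes passed the test, with log2 changes of -0.10, -0.28 (edgeR adjusted p = 0.0139) and -0.16 (adjusted p = 0.121), although DESeq2 called the HDAC1–E63R value (-0.29, DESeq2 adjusted p = 1.38e-04). Set against its scaffolds, the per-length level of Kdm1a was 0.817 ± 0.0440 of the summed Rcor level in untreated HDAC1-WT cells and 0.670 ± 0.0365 after OHT. In HDAC1–Y48E cells the ratio was 0.928 ± 0.0420 untreated and 1.15 ± 0.0976 after OHT, and in HDAC1–E63R cells 1.12 ± 0.140 (1.05 without untreated replicate 3) and 1.06 ± 0.00853. The ratio was thus lower after OHT in HDAC1-WT cells and higher in HDAC1–Y48E cells, each without overlap (exact permutation test, two-sided, p = 0.1, the smallest that 3 against 3 allows). Its size depended on the length used, here merged exons. With the longest transcripts, Kdm1a was at 89.0 in untreated HDAC1-WT cells, above the sum of Rcor2 (53.2), Rcor1 (15.4) and Rcor3 (2.87).

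Of the MIER scaffolds, which share the ELM2–SANT arrangement with MTA and RCOR proteins, none passed the test after OHT in any line. Mier3 (chromosome 13, 111680979 to 111718596) had 44.4, 42.5 and 49.3 CPM in untreated HDAC1–Y48E cells and 34.7, 34.3 and 37.1 after OHT. In HDAC1-WT cells it had 51.0, 45.5 and 50.4 CPM untreated and 46.6, 40.4 and 37.5 after OHT, and in HDAC1–E63R cells 39.7, 29.2 and 25.7 untreated and 28.0, 28.2 and 27.4 after OHT. The HDAC1–Y48E groups did not overlap, and the log2 change of -0.36 (standard error 0.14) had an edgeR adjusted p of 0.0423. The other lines gave -0.24 and -0.18. Mier2 (chromosome 10, 79540245 to 79555199) had 54.1, 45.7 and 53.8 CPM in untreated and 63.6, 57.3 and 56.8 in OHT-treated HDAC1–Y48E cells, a log2 change of 0.21 (edgeR adjusted p = 0.125), the only value above 0 among the 10 genes in that line. Its 12 other libraries were between 49.1 and 56.5 CPM, and Mier2 had the narrowest range of group means of the 10 genes (0.21 on the log2 scale). Mier1 (chromosome 4, 103114390 to 103165754) had group means of 45.7 to 65.9 CPM and log2 changes of -0.26, -0.22 and -0.16 with standard errors of 0.17.

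Elmsan1 (chromosome 12, 84149176 to 84218881), which encodes the MiDAC scaffold MIDEAS, had the largest change of the 10 genes. In HDAC1–Y48E cells it had 136, 139.7 and 142 CPM untreated and 67.9, 64.3 and 69.4 after OHT. In HDAC1-WT cells the values were 133, 128 and 122 untreated and 117, 124 and 119 after OHT, and in HDAC1–E63R cells 122, 127 and 78.7 untreated and 90.3, 89.8 and 76.4 after OHT. The HDAC1–Y48E libraries were the highest of the 18 without OHT and the lowest with it. From 139 ± 3.45 to 67.2 ± 2.60 CPM, Elmsan1 fell by a log2 change of -1.05 (standard error 0.13, edgeR adjusted p = 1.34e-06), which also made it the 1 differentially expressed gene of the 10 by the additional requirement of more than 2-fold. Of all genes tested, 16.6% met that requirement in this line. The values in HDAC1-WT (-0.09, adjusted p = 0.910) and HDAC1–E63R (-0.36, adjusted p = 0.0497) did not pass. Trerf1 (chromosome 17, 47140875 to 47361958), the other MiDAC scaffold, had 20.8 to 43.1 CPM over the 18 libraries with overlapping groups in each line, and its log2 changes of 0.08, 0.11 and -0.22 had standard errors of 0.18.

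Rere (chromosome 4, 150281646 to 150621966), the atrophin-family scaffold, had 119.6, 118 and 123 CPM in untreated HDAC1–Y48E cells and 80.5, 86.1 and 67.9 after OHT. In HDAC1-WT cells it had 114, 112 and 119 CPM untreated and 112, 111 and 116 after OHT. The untreated HDAC1–E63R libraries had 153, 149 and 63.7 CPM, and those with OHT 97.2, 85.1 and 88.7. The HDAC1–Y48E groups did not overlap, and the untreated HDAC1–E63R group held both the highest and the lowest values of the 18 libraries, the lowest being replicate 3. The log2 change in HDAC1–Y48E cells was -0.62 (standard error 0.19, edgeR adjusted p = 0.0135), a larger size than that of Rcor2 with a wider error. That error rests on the spread over all 18 libraries, not on the HDAC1–Y48E libraries alone, and was also 0.19 in the other lines. The HDAC1–Y48E change passed in a fit to the 6 HDAC1–Y48E libraries alone (-0.63, edgeR adjusted p = 8.58e-08) and when genes with low counts were kept (-0.62, edgeR adjusted p = 2.26e-05).

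Calls in the HDAC1–E63R line turned on 1 library. Without untreated replicate 3, 5 of the 10 genes fell after OHT and were called, against 18.5% of 19503 genes tested and 9.63% called lower. Rere had a log2 change of -0.75 (edgeR adjusted p = 4.43e-09), Elmsan1 of -0.54 (2.10e-06) and Mier1 of -0.44 (0.00618). Rcor2 had -0.29 (0.00698) and Kdm1a -0.26 (0.00175). The values that moved most were those for which replicate 3 lay below the other untreated libraries, while Kdm1a and Rcor2 had similar values with and without it and smaller standard errors without it. Rcor1 (-0.23), Rcor3 (-0.58), Mier3 (-0.31), Trerf1 (-0.02) and Mier2 (0.07) were not called. The median log2 change of the 10 genes was -0.30 without the library, beside 0.05 over all genes tested. In that fit the spread of the 2 remaining libraries is taken to be like that of the other groups. All 18 libraries shared an estimate of spread per gene, so replicate 3 also entered the standard errors of the other lines. For Rere these were 0.19 after OHT in each line, and 0.088 in HDAC1–E63R cells without that replicate. Comparisons that do not use untreated HDAC1–E63R cells were not refitted without this library alone. Fits to only the libraries compared also called Rere and Mier3 after OHT in HDAC1–Y48E cells, and Rcor1 between untreated HDAC1–Y48E and HDAC1-WT cells.

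**Figure D3:**
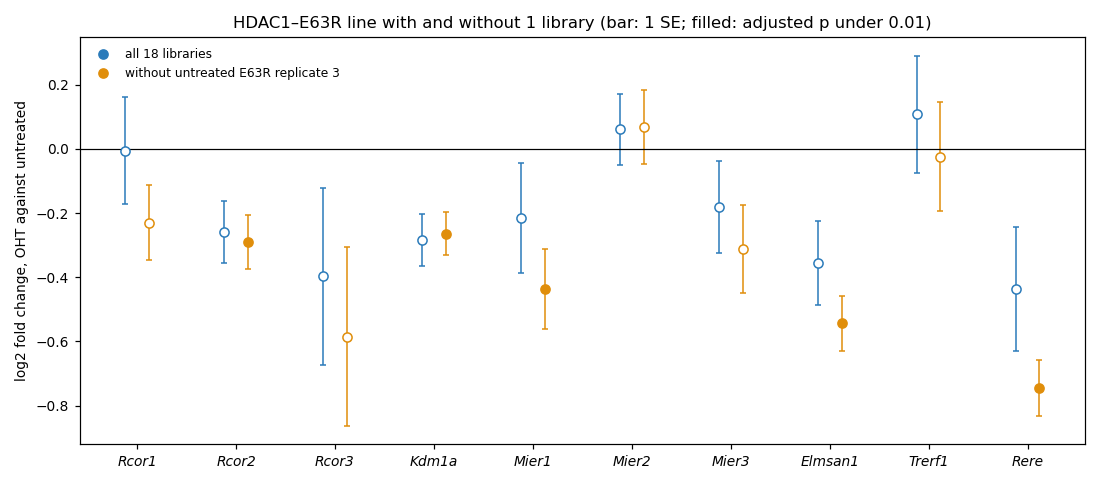
Log2 fold change after OHT in the HDAC1–E63R line (y axis) for the 10 genes (x axis), from all 18 libraries (blue) and without untreated replicate 3 (orange), with bars of 1 standard error and filled points for an edgeR adjusted p under 0.01. No blue point is filled, whereas the orange points of Rcor2, Kdm1a, Mier1, Elmsan1 and Rere are.

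For Rcor2 and Elmsan1 the OHT effect in HDAC1–Y48E cells differed from that in HDAC1-WT cells. In an interaction test, the difference in log2 change (HDAC1–Y48E minus HDAC1-WT) was -0.83 for Rcor2 (standard error 0.14, edgeR adjusted p = 1.30e-04) and -0.96 for Elmsan1 (standard error 0.18, edgeR adjusted p = 5.98e-04), and 12.6% of all genes were called. Rere had -0.59 (edgeR adjusted p = 0.129), and passed when only the libraries of the 2 lines were fitted (-0.60, edgeR adjusted p = 1.17e-04). The other 7 genes were between -0.30 and 0.20. Between HDAC1–E63R and HDAC1-WT 0 of 10 passed with edgeR, where 2.45% of all genes did, with 1 gene (Rcor2, -0.51, edgeR adjusted p = 0.0311) at an unadjusted p under 0.05, which DESeq2 called. Over all 18791 genes 3829 had an unadjusted p under 0.05 and DESeq2 called 912. Without untreated HDAC1–E63R replicate 3 the edgeR count became 3 of 10 against 6.53% of all genes, namely Rere (-0.72), Rcor2 (-0.54) and Elmsan1 (-0.46). Between the mutant lines 0 of 10 passed with edgeR against 1.95% of all genes. Of the 10, 2 had an unadjusted p under 0.05, beside 3540 of all 18791 genes, and DESeq2 called 0, beside 795. Elmsan1 was the nearest there, with a log2 difference (HDAC1–Y48E minus HDAC1–E63R) of -0.69 (edgeR adjusted p = 0.0299) over all libraries and -0.51 (edgeR adjusted p = 0.00161) without replicate 3, where 7.45% of all genes were called. It also passed without untreated HDAC1–E63R replicate 2, at -0.82.

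Before OHT, Rcor1 and Mier3 were lower in HDAC1–E63R than in HDAC1-WT cells. Rcor1 had 52.2 ± 17.8 CPM in untreated HDAC1–E63R cells (replicate 3 included) and 87.3 ± 8.64 in untreated HDAC1-WT cells, a log2 difference of -0.74 (standard error 0.17, edgeR adjusted p = 0.00183). Mier3 had 31.5 ± 7.28 and 49.0 ± 3.01 CPM, a difference of -0.63 (standard error 0.14, edgeR adjusted p = 0.00178). Both were called lower, as were 7.83% of all genes. The libraries of the lines did not overlap for these genes or for Kdm1a, 3 of 10 against 35.2% of all genes, and 16.9% of all genes were called. Kdm1a was higher in HDAC1–E63R cells by 0.29 (edgeR adjusted p = 0.0115), which did not pass, and was called by DESeq2 (0.31, DESeq2 adjusted p = 4.37e-05) as the third of its 3 calls. DESeq2 called 4070 of all 18791 genes in that comparison. The calls of Rcor1 and Mier3 were lost without untreated HDAC1-WT replicate 3, and that of Mier3 also without replicate 1 of that group. Without untreated HDAC1–E63R replicate 3, Kdm1a (0.27) and Rere (0.40) were higher in HDAC1–E63R cells and called as well, 4 of 10 against 20.5% of all genes. Between untreated HDAC1–Y48E and HDAC1-WT cells 0 of 10 passed with edgeR against 12.2% of all genes. Rcor1, at 58.9 ± 2.55 CPM in HDAC1–Y48E cells, was the 1 gene of the 10 at an unadjusted p under 0.05 (log2 difference -0.57, edgeR adjusted p = 0.0171) and was called by DESeq2. Over all 18791 genes 6088 had such a p and DESeq2 called 3094. Between the mutant lines 0 of 10 passed with edgeR against 1.85% of all genes. Of the 10, 4 had an unadjusted p under 0.05, beside 3465 of all 18791 genes, and DESeq2 called 1 (Kdm1a, -0.24), beside 720. Without HDAC1–E63R replicate 1 Mier3 passed (0.73), and without replicate 3 Rere did (-0.34), 1 of 10 against 4.67% of all genes.

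Rcor2, Mier2 and Elmsan1 held the largest share of the per-length level of their families in each of the 6 groups, and the shares within families moved after OHT in HDAC1–Y48E cells. Rcor2 made up 80.8% ± 0.700 (SD, n = 3) of the Rcor total in untreated HDAC1–Y48E cells and 74.0% ± 2.46 after OHT. Rcor1 went from 17.7% ± 0.946 to 24.0% ± 2.63, and Rcor3 from 1.46% ± 0.253 to 1.99% ± 0.208. Elmsan1 made up 84.1% ± 1.67 of the Elmsan1 and Trerf1 total and 74.9% ± 4.11 after OHT. Mier2 went from 47.9% ± 1.87 to 56.2% ± 1.68 of the Mier total and Mier3 from 31.4% (30.1% to 32.9%) to 24.8% (23.3% to 26.3%). None of these groups overlapped (exact permutation test, two-sided, p = 0.1 each, the smallest that 3 against 3 allows). In the HDAC1–E63R line only the MiDAC shares did not overlap, with Elmsan1 at 83.3% ± 1.51 untreated and 78.6% ± 0.966 after OHT (exact permutation p = 0.1), and in HDAC1-WT cells all shares overlapped. Without untreated HDAC1–E63R replicate 3 the Elmsan1 share was 84.0% untreated and again did not overlap. Neither did Mier2, at 51.6% untreated (49.5% to 53.8%) and 59.0% after OHT (56.9% to 60.3%), nor Mier1, at 22.6% (21.3% to 23.9%) and 18.2% (17.0% to 19.4%). The summed per-length level of the 9 scaffolds was 118 ± 3.37 in untreated and 86.8 ± 4.28 in OHT-treated HDAC1–Y48E cells, without overlap. It was 123 ± 1.91 and 129 ± 2.20 in HDAC1-WT cells, higher after OHT and also without overlap (exact permutation p = 0.1 in both lines). In HDAC1–E63R cells it was 109.5 ± 17.3 untreated and 94.2 ± 2.43 after OHT, with overlap, and the 2 untreated libraries other than replicate 3 had 114 and 124. The share of Rcor3 depended on the length used, being 1.25% ± 0.289 in untreated HDAC1-WT cells on merged exons and 4.00% on the longest transcript. The order of Mier1 and Mier3 depended on it as well. In the same cells they held 21.0% and 32.1% on merged exons, and 31.9% and 21.7% on the longest transcript.

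**Figure D4:**
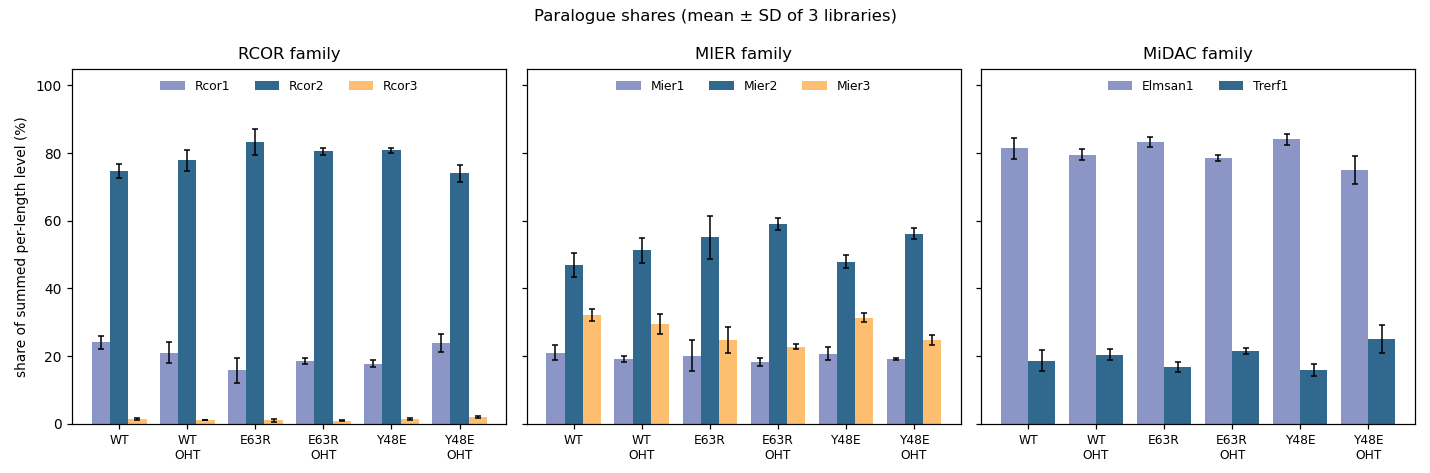
Share of each paralogue in the summed per-length level of its family (y axis, percent, from 0) in the 6 groups (x axis), as means of 3 libraries with bars of 1 SD. Rcor2 and Elmsan1 hold 74.0% or more of their families in each group, and the Elmsan1 share is lowest in OHT-treated HDAC1–Y48E cells at 74.9%.

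Other genes of these complexes were taken from a list of 18 partners, of which 16 were tested; Gfi1 was listed at 0 in all 18 libraries and Gfi1b had at most 9 counts. In HDAC1–Y48E cells 2 of 16 were called, both lower, against 30.9% of all genes called and 14.7% called lower. Rest, the zinc-finger repressor that recruits CoREST, had 244, 268 and 289.7 CPM untreated and 118, 116 and 122 after OHT in that line, all OHT-treated libraries being far below their controls. Its log2 change was -1.17 (standard error 0.14, edgeR adjusted p = 9.40e-07), the difference from HDAC1-WT was -1.21 (edgeR adjusted p = 1.30e-04), and its log2 change was 0.04 in HDAC1-WT and -0.30 in HDAC1–E63R cells (edgeR adjusted p = 0.128), neither called. Gse1, a coiled-coil subunit found with CoREST, had 188, 205 and 174 CPM untreated and 91.0, 109 and 95.1 after OHT in HDAC1–Y48E cells (log2 change -0.94, edgeR adjusted p = 1.82e-06). In HDAC1–E63R cells 2 of 16 were called against 14.3% of all genes, Gse1 lower (-0.51, edgeR adjusted p = 0.00311) and Ctbp2, a corepressor associated with CoREST, higher. Ctbp2 had 102, 90.1 and 77.4 CPM untreated and 147, 154 and 149 after OHT in this line, a log2 change of 0.74 (edgeR adjusted p = 5.98e-05), beside 0.32 in HDAC1–Y48E cells (edgeR adjusted p = 0.0247). The difference between HDAC1–E63R and HDAC1-WT did not pass for Gse1, Ctbp2 or Rest. Without untreated HDAC1–E63R replicate 3, 4 of 16 were called after OHT in that line against 18.5% of all genes, with Gse1 (-0.67) and Rest (-0.50, edgeR adjusted p = 2.64e-06) lower, and Ctbp2 (0.64) and Kdm1b, the paralogue of Kdm1a (0.45), higher. In that fit the difference from HDAC1-WT also passed for Rest (-0.54, edgeR adjusted p = 3.05e-04) and Gse1 (-0.46, 0.0020), and for Rest that between the mutant lines (-0.67, 1.45e-05), which over all libraries was -0.87 (0.0117). In HDAC1-WT cells 0 of 16 passed with edgeR, with 1 at an unadjusted p under 0.05, beside 1852 of all 18791 genes, and 0 with DESeq2, beside 85. Dnttip1, the MiDAC subunit, had log2 changes of 0.02, -0.36 and 0.23, and Atn1, the paralogue of Rere, of -0.75, -0.54 and 0.45, none called. Of the exon bases of Atn1, 84.2% overlap Gm45234 on the same strand. Of those of Gse1, 27.9% overlap genes on the opposite strand. The levels of these 2 genes are therefore uncertain.

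The RE1 genes, neuronal genes that REST silences through CoREST in other cells, moved in both directions in HDAC1–Y48E cells. From a list of 15, of which 14 were tested and Gria2 was listed at 0 in all libraries, 8 were called there, 5 higher and 3 lower, against 30.9% of all genes. Vgf, a neurosecretory precursor, had 12, 5 and 1 counts (1.32, 0.569 and 0.108 CPM) untreated and 146, 287 and 197 counts (14.6, 26.0 and 17.7 CPM) after OHT, with a log2 change of 4.85 (standard error 0.56, edgeR adjusted p = 4.15e-07). Chrm4, a muscarinic receptor, rose by 2.38, the adhesion molecule L1cam by 2.14, the synapsin Syn1 by 1.17 and the neuronal tubulin Tubb3 by 0.75 on the log2 scale. Stmn2 (-0.91) and Unc13a (-0.51) were called lower. Grin1, an NMDA receptor subunit, also went the other way, with 28.5, 27.4 and 37.3 CPM untreated and 8.31, 13.3 and 10.2 after OHT (log2 change -1.54, edgeR adjusted p = 5.62e-06). With HDAC1–E63R 2 of 14 were called, both higher, against 14.3% of all genes, namely Vgf (2.57, from 16, 15 and 33 counts to 100, 169 and 169) and Tubb3 (0.97). Without untreated replicate 3 of that line these were again the 2 genes called, at 3.09 and 1.12. In HDAC1-WT cells 0 of 14 passed with edgeR and 0 with DESeq2, although 7 had an unadjusted p under 0.05, 13 of 14 log2 changes were above 0, and their median was 0.76. Over all 18791 genes 1852 had such a p and DESeq2 called 85. A difference between HDAC1–Y48E and HDAC1-WT was called for 4 of the 14, against 12.6% of all genes, with Vgf higher (4.45) and Grin1 (-2.39), Stmn2 (-0.94) and Unc13a (-0.66) lower in HDAC1–Y48E cells. For Chrm4 (1.70), L1cam (1.31), Tubb3 (0.36) and Syn1 (0.33) it did not pass.

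**Figure D5:**
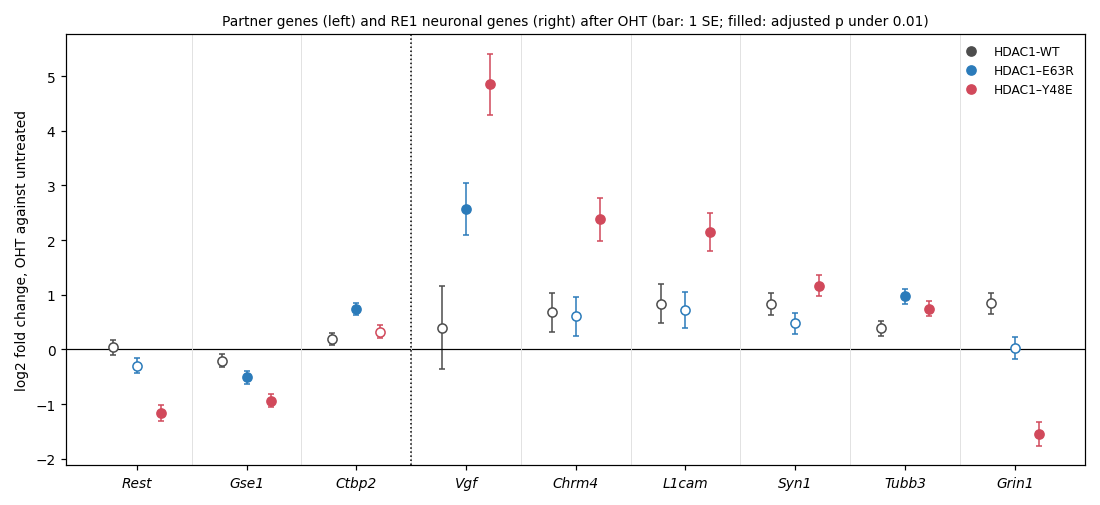
Log2 fold change after OHT (y axis) of the called partner genes (left of the dotted line) and of 6 RE1 neuronal genes (right) in the 3 lines, with bars of 1 standard error and filled points for an edgeR adjusted p under 0.01. Rest and Gse1 are lowest in the HDAC1–Y48E line at -1.17 and -0.94, and Vgf is highest there at 4.85.

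In HDAC1–Y48E cells, where Elmsan1 and Rcor2 fell, the 6 ESC markers Pou5f1 (-1.52), Nanog (-1.29), Sox2 (-0.68), Esrrb (-1.64), Zfp42 (-0.37) and Dppa5a (-1.11) were all called lower, as were 14.7% of all genes. In HDAC1–E63R cells, where none of the 10 genes was called with all libraries, Pou5f1 (-0.75), Esrrb (-0.40) and Dppa5a (-0.80) were called lower. Of all 18791 genes tested, 1281 were called lower there. Untreated replicate 3 of that line was the highest of its group for Pou5f1 and Dppa5a, with 1564 and 3718 CPM, while it was the lowest for Rere, Elmsan1 and Rcor1. Without it Pou5f1 (-0.50), Esrrb (-0.54) and Dppa5a (-0.30) were called lower, against 9.63% of all genes, and Zfp42 (0.32) higher. In that fit 5 of the 10 scaffold genes and Kdm1a were called, all lower. In HDAC1-WT cells none of the 6 was called. Before OHT the lines did not have the same marker levels. Mean CPM in untreated HDAC1-WT, HDAC1–E63R and HDAC1–Y48E cells was 890, 470 and 622 for Nanog and 532, 386 and 310 for Sox2. It was 1253, 1193 and 1065 for Pou5f1 and 2631, 2341 and 1998 for Dppa5a. For Esrrb it was 519, 498 and 557, and for Zfp42 263, 330 and 312. Of the 8 markers of other cell states Pax6, a neural gene, was called lower in HDAC1–Y48E cells (-2.44), Zscan4c, a gene of cells like those of the cleavage stage, was called higher in HDAC1–E63R cells (1.48), and no other was called. Over all genes 30.9% were called in HDAC1–Y48E and 14.3% in HDAC1–E63R cells. Group means were at most 9.58 CPM for Gata6, 5.69 for Sox17, 1.59 for Cdx2, 1.01 for Elf5, 1.25 for T, 11.4 for Pax6, 3.75 for Col1a2 and 57.6 for Zscan4c. The part of these differences in the values of the scaffold genes was not tested.

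The 3 genes with the widest range of group means were compared with all genes tested over the 18 libraries, as a description with no test, since libraries of a group share their line and treatment. Elmsan1, with a range of 1.05 on the log2 scale, was most like Gm16185 (Pearson r 0.97), the nuclear RNA-binding protein gene Hnrnpul1 (0.97) and the oxysterol-binding protein gene Osbpl1a (0.97), and least like the small heat-shock protein gene Hspb1 (-0.96). After each group mean was subtracted, these correlations were 0.85, 0.92, 0.74 and -0.81. The 18 libraries include untreated HDAC1–E63R replicate 3, where Elmsan1 had 78.7 CPM beside 122 and 127 in the rest of its group. The part of that library in the within-group values of the 3 genes was not tested. Rcor3 was most like the Polycomb gene Bmi1 (0.86), the lipase gene Lpl (0.80) and Hoxd8 (0.78), and least like Zbtb32 (-0.79), with 0.70, 0.34, 0.63 and -0.41 within groups. Rcor2 was most like Mmachc, a gene of vitamin B12 metabolism (0.94), the anoctamin gene Ano9 (0.94) and the ESC nuclear receptor gene Esrrb (0.93), and least like Gm20481 (-0.95). Within groups the Rcor2 values were only 0.42, 0.39, 0.32 and -0.43, so that its likeness to these genes lay largely between groups.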

How the data were processed

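RNA-seq had been carried out on 18 libraries in 6 groups of 3. The authors deposited raw counts per gene symbol for each library, from reads mapped to mm10, and the submitters' processing notes name HISAT2 2.1.0, SAMtools 1.9 and HTSeq. The annotation and the strand setting are not given in the sources used here. The 5 entries that name no gene, 59.4% to 61.2% of a library, were left out.

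Counts were scaled with TMM factors and filtered by group with filterByExpr, which kept 18791 genes, in edgeR 4.0.16 (R 4.3.3). One quasi-likelihood model held a mean per group over all 18 libraries. Contrasts were OHT-treated minus untreated cells within a line, the difference of these effects between lines, and untreated cells between lines. P-values were adjusted by Benjamini-Hochberg over all genes tested, and calls needed an adjusted p under 0.01. Per-length levels used merged exons of GENCODE M21. Likeness used log2 CPM with a prior count of 2. Near-identical copies were sought at 95% identity over 200 bases. The procedure was tested on simulated data.

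The members and gene lists were chosen with earlier results of these data known. Named genes were the 10 members, Hdac1 and Hdac2, called partner genes, the 6 called RE1 genes of largest change, and for the 3 members of widest range the 3 most and the 1 least alike genes. Dnttip1, Atn1, Gfi1, Gfi1b, Gria2, Stmn2 and Unc13a were named in addition, after their values were seen. The alternatives tried were no filter on low counts, DESeq2-type size factors (RLE), a replicate block, DESeq2 1.42.0, an adjusted p under 0.05, only the libraries compared, glmTreat against 1.2-fold, longest transcripts and each library left out.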

Additional observations from a re-analysis of the deposited data

Results flagged for a closer look

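Elmsan1 and Rcor2 were flagged because their OHT effect differed between the HDAC1–Y48E and HDAC1-WT lines in a test of the difference itself (edgeR interaction, Benjamini-Hochberg adjusted). The log2 difference was -0.83 for Rcor2 (adjusted p = 1.30e-04) and -0.96 for Elmsan1 (adjusted p = 5.98e-04). Every OHT-treated HDAC1–Y48E library lay below all 3 of its untreated controls for both genes, and 59.3% of all genes had no overlap there. For Rcor2 the OHT-treated HDAC1-WT libraries lay above all of theirs, where 19.2% of all genes had no overlap. That change in HDAC1-WT cells did not pass (edgeR adjusted p = 0.367). Across all genes 12.6% were called in this comparison.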

How the results depend on the processing

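The falls of Elmsan1 and Rcor2 after OHT in HDAC1–Y48E cells, and their differences from HDAC1-WT, passed the threshold under every alternative run. No value of the 10 genes that was called, in the main fit or in an alternative, changed sign between them. Values called in neither could change sign. That of Trerf1 after OHT in HDAC1–E63R cells was 0.11, and -0.02 without untreated replicate 3. Over the 10 genes and 9 comparisons, 703 of 720 values with a library left out kept their side of the threshold. Counts of called genes moved elsewhere. With no filter on low counts 1 of the 10 was called after OHT in HDAC1–E63R cells (Rere), 1 between the OHT effects of the mutant lines (Elmsan1) and 1 between untreated HDAC1–Y48E and HDAC1-WT (Rcor1), and 1 RE1 gene was called in HDAC1-WT cells. DESeq2 called 1 after OHT in HDAC1–E63R cells (Kdm1a), 1 between the HDAC1–E63R and HDAC1-WT effects (Rcor2), 1 between untreated HDAC1–Y48E and HDAC1-WT (Rcor1) and 1 between the untreated mutant lines (Kdm1a). Over all 18791 genes DESeq2 called 3595, 912, 3094 and 720 in these comparisons. Between untreated HDAC1–E63R and HDAC1-WT, Kdm1a was called in addition to Rcor1 and Mier3 by DESeq2, with RLE factors and at an adjusted p under 0.05, 3 of the 10 each. At an adjusted p under 0.05, 2 were called after OHT in HDAC1–E63R and 4 in HDAC1–Y48E cells, and 1 in each of the differences HDAC1–E63R from HDAC1-WT, between the mutant lines, untreated HDAC1–Y48E from HDAC1-WT and untreated HDAC1–Y48E from HDAC1–E63R. Against a 1.2-fold change (glmTreat) 1 was called between untreated HDAC1–E63R and HDAC1-WT (Rcor1), and 1 partner after OHT in HDAC1–E63R cells. With only the libraries compared, 4 of the 10 were called after OHT in HDAC1–Y48E cells (with Rere and Mier3), Rere was called in addition between the HDAC1–Y48E and HDAC1-WT effects, 0 were called between untreated HDAC1–E63R and HDAC1-WT, 1 between untreated HDAC1–Y48E and HDAC1-WT, 0 partners and 0 RE1 genes in HDAC1–E63R cells and 1 RE1 gene in HDAC1-WT cells. For the alternatives other than DESeq2 the number of all genes called is not given here, so these counts have no background beside them. The cause of these differences was not tested.

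With each library left out in turn, the count ranged from 0 to 5 after OHT in HDAC1–E63R cells, from 0 to 3 between the HDAC1–E63R and HDAC1-WT effects, from 0 to 1 between the effects of the mutant lines, from 0 to 4 between untreated HDAC1–E63R and HDAC1-WT, and from 0 to 1 between the untreated mutant lines. For the partners after OHT in HDAC1–E63R cells it ranged from 1 to 4. A block for the replicate number gave the same call for all 90 values of the 10 genes, with 0, 0 and 2 of the 10 called after OHT in the HDAC1-WT, HDAC1–E63R and HDAC1–Y48E lines. Deviations of same-numbered libraries correlated at -0.02 to 0.04 across genes, and those of differently numbered ones at -0.06 to 0.06. In the HDAC1–Y48E line the same-numbered pairs were at 0.02 to 0.03 and all others below 0. Correlations this weak cannot decide whether the numbers pair the samples. With the block, 6 genes in place of 11 were called after OHT in HDAC1-WT cells over all genes, 2469 in place of 2688 in HDAC1–E63R and 5604 in place of 5812 in HDAC1–Y48E cells. Rcor3 had the fewest counts of the 10 genes, 49 to 150 per library, and counting error was not separated from the spread between libraries. Gfi1, Gfi1b and Gria2 had too few counts to be tested.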
